A study of Mirounga angustirostris with 8 samples.

Results

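The 10 genes described here run the calcium store of muscle fibers and were chosen by name, with earlier results of these data known. Their RNA was measured in the longissimus dorsi of adult female northern elephant seals (NES). All 10 members (ATP2A1, ATP2A2, PLN, SLN, RYR1, CACNA1S, CASQ1, CASQ2, TRDN and JPH1) were present among the 24341 named entries of the count table, and all 10 were among the 14314 genes that passed the filter on low counts. The 8 libraries were 4 labelled early molt, here called pre-molt, and 4 labelled late molt, here called post-molt. The pre-molt libraries came from seals 5572, 5842, 6762 and C497, biopsied at most 5 days after they came ashore. The post-molt libraries came from seals 4448, 5572, 9678 and X410. The paper states a mean of 34 days between the initial and the post-molt sample, and gives no days for single seals. In between, the seals fasted on land with little activity, and all of them were sedated for the biopsy. The authors biopsied some but not all of their animals at both times. They set aside libraries with poor sequencing results and low quality RNA, and kept for each time those with the most unique reads. Among the libraries kept, seal 5572 alone has both times, and the comparison is therefore unpaired. The question put to the data was which parts of calcium release and uptake differed in their RNA between the start and the end of this fast.

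In a muscle fiber, an action potential moves the voltage sensor of the transverse tubule, the calcium channel subunit coded by CACNA1S, which opens the ryanodine receptor RYR1 in the facing membrane of the sarcoplasmic reticulum. Calcium pours out, the sarcomere contracts, and calcium pumps of the SERCA family return the ion to the store. ATP2A1 codes for SERCA1, the pump of fast fibers, and ATP2A2 for SERCA2, the pump of slow fibers and heart. Phospholamban (PLN) and sarcolipin (SLN) are small membrane proteins that lower pump activity. Calsequestrin, in a fast skeletal form (CASQ1) and a form of slow fibers and heart (CASQ2), holds calcium inside the store, triadin (TRDN) ties it to the ryanodine receptor, and junctophilin 1 (JPH1) keeps both membranes close together.

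Total counts per library ranged from 37899145 to 56141499 pre-molt and from 30770425 to 61220136 post-molt, and expression is given as CPM, the depth-normalised read count of a gene, after TMM scaling of library sizes. At this depth 1 read was worth 0.0143 to 0.0323 CPM, and the lowest count of any member was 135 reads. Gene lengths were not used here, so levels are compared between libraries for each gene and not between genes. The 6 markers of skeletal muscle fibers summed to 174686 to 276718 CPM pre-molt and 160963 to 230944 CPM post-molt, whereas of 5 cardiac markers NPPA had no read, NPPB and MYBPC3 stayed at or under 0.139 CPM and MYH6 was not matched in the table. The fifth, TNNI3, was at 12.04 to 17.0 CPM pre-molt and 18.0 to 65.7 CPM post-molt without overlap (adjusted p = 0.0844 by edgeR and 0.00495 by DESeq2). Of the fiber markers the highest were MB, the myoglobin gene (69241 ± 18794 and 110528 ± 17567 CPM, adjusted p = 0.248 by edgeR and 0.0281 by DESeq2), and ACTA1, skeletal actin (85953 ± 22330 and 45183 ± 9792 CPM without overlap, adjusted p = 0.123 by edgeR and 0.00406 by DESeq2). Among all genes that passed the filter, the groups did not overlap in 9.15%, with post-molt higher in 4.04% and lower in 5.11%. The TTN and NEB genes, which have very long transcripts, differed between libraries by 25.0-fold and 10.1-fold. Post-molt minus pre-molt differences are log2 fold changes with their standard error (SE) or 95% interval, from the quasi-likelihood test of edgeR with Benjamini-Hochberg adjustment over all genes tested, and a gene is said to have risen or fallen at an adjusted p under 0.05.

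Among the 10 genes, ATP2A2 rose and no gene fell. The paper had already listed ATP2A2 among its upregulated genes from these data. The count of called members is therefore not independent of how the 10 were chosen. Of all genes tested, 0.349% changed, and the share that rose was 0.217% and the share that fell 0.133%. At an unadjusted p under 0.05, ATP2A2 and PLN were higher and CASQ1 and JPH1 were lower, 2 members in each direction, against 5.2% and 6.22% of all genes and 11.4% in either direction. The median log2 fold change of the 10 genes was -0.08, and that of all genes tested was -0.04. DESeq2, the tool the authors used, called ATP2A2 and PLN higher and 0 of the 10 lower, against 3.31% and 3.13%, or 6.44% in either direction, of the 10119 genes to which it gave an adjusted p.

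**Figure D1:**
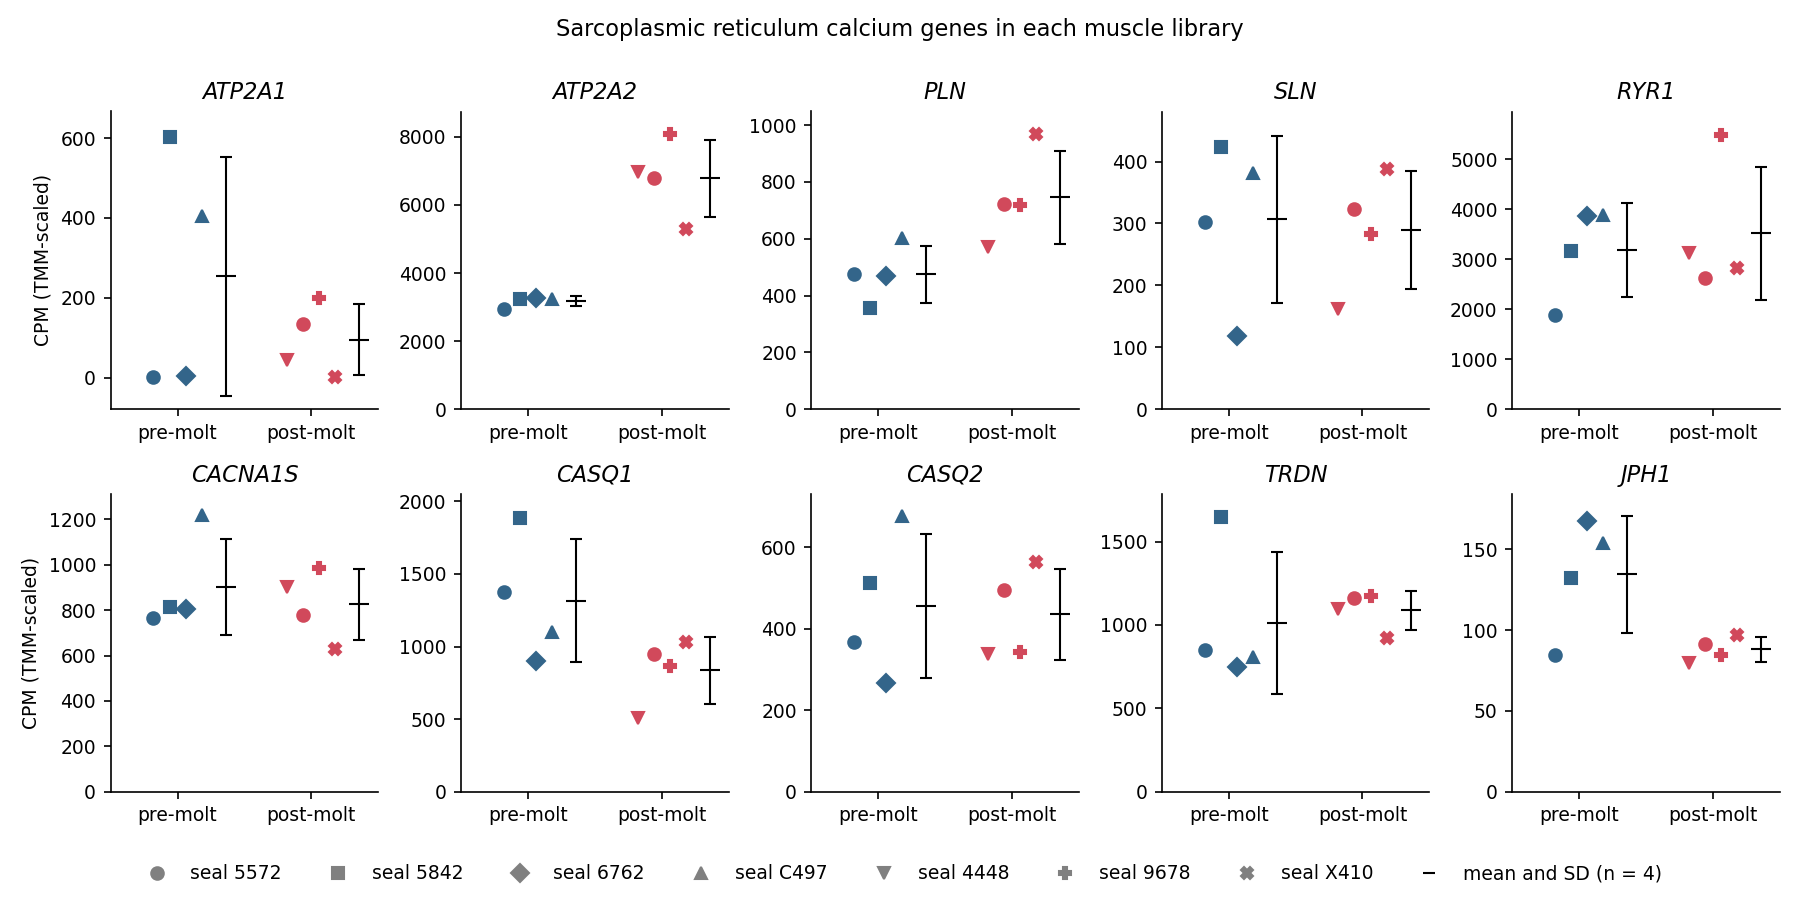
TMM-scaled CPM (linear axes) of each of the 10 genes in each library, with pre-molt in blue and post-molt in red, 1 marker shape per seal, and the mean ± SD of 4 libraries in black. The post-molt values of ATP2A2 (5304 to 8073 CPM) lie above all pre-molt values (2956 to 3279 CPM), while in the other 9 genes the groups overlap.

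**Figure D2:**
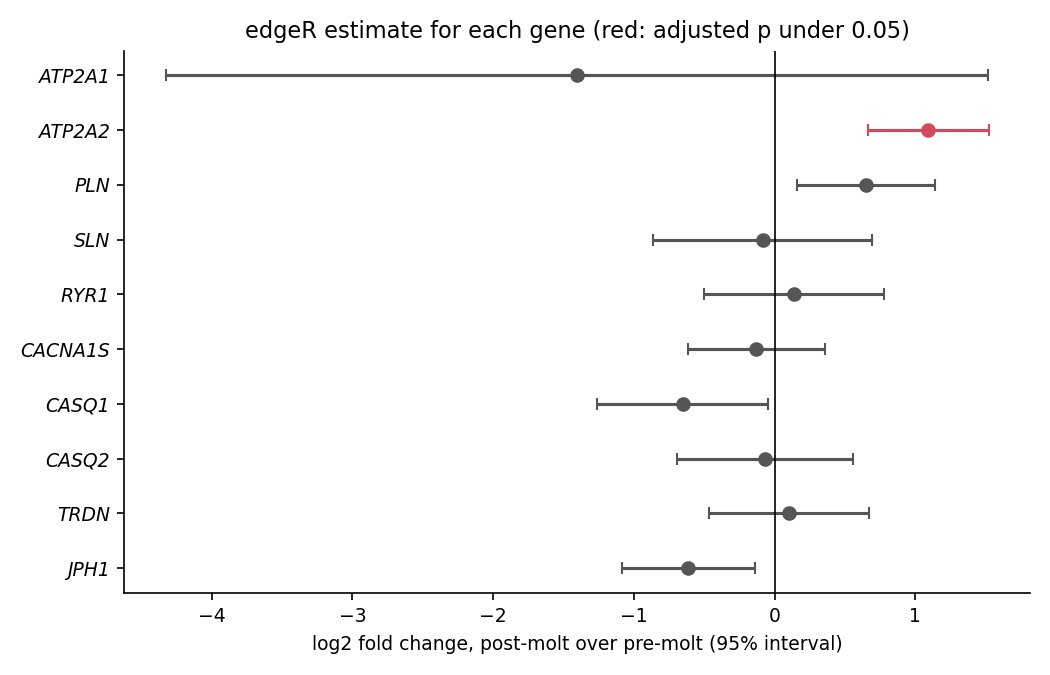
Log2 fold change of each gene, post-molt over pre-molt, with its 95% interval from the edgeR fit (n = 4 libraries per group). ATP2A2 (1.09) is the single gene past the threshold, the intervals of PLN, CASQ1 and JPH1 lie on 1 side of 0 without passing after adjustment, and ATP2A1 has by far the widest interval (-4.33 to 1.51).

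The slow-fiber pump gene ATP2A2 was close to constant before the molt and about doubled after it. Pre-molt libraries held 2956 CPM (seal 5572), 3235 CPM (5842), 3279 CPM (6762) and 3247 CPM (C497), and post-molt libraries held 6961 CPM (4448), 6782 CPM (5572), 8073 CPM (9678) and 5304 CPM (X410). Every post-molt library lay above every pre-molt library, which was the case in 1 of the 10 genes. Over all genes tested the groups did not overlap in 9.15%, with post-molt higher in 4.04% and lower in 5.11%. The means were 3179 ± 150 CPM pre-molt and 6780 ± 1138 CPM post-molt (SD, n = 4 each), a ratio of 2.13 and a log2 fold change of 1.09 ± 0.20 (SE, edgeR adjusted p = 0.0419, 95% interval 0.67 to 1.52). In seal 5572 the rise was 2.29-fold. The spread of ATP2A2 inside the groups was among the smaller ones, with an SD of 0.18 on the log2 scale, and 8.38% of the 7374 genes with a mean of at least 10 CPM had a smaller one. The log2 fold change stayed between 1.002 and 1.20 when 1 library was left out. However, the edgeR call ended without pre-molt 5572, 6762 or C497 and also on leaving out post-molt 4448, 5572, 9678 or X410 (adjusted p = 0.0526 to 0.122), and held without pre-molt 5842 (adjusted p = 0.0499).

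Other cell types also make SERCA2. Smooth muscle and pericyte markers (9 of 9 present) summed to 216 to 362 CPM pre-molt and 247 to 403 CPM post-molt, with SMTN (106 ± 27.9 and 109 ± 20.5 CPM, n = 4 each) and LMOD1 the highest. Endothelial markers (8 of 8) summed to 426 to 567 CPM pre-molt and 388 to 451 CPM post-molt, led by VWF and PECAM1. Fibroblast markers (6 of 6), led by COL3A1 and COL1A2, summed to 413 to 1355 CPM and 169 to 443 CPM, with 4 of them lower at an unadjusted p under 0.05 (6.22% of all genes), 0 called by edgeR and 2 called lower by DESeq2 (3.13% of all genes), COL1A2 (adjusted p = 0.0149) and LUM (0.00452). Of the 8 endothelial markers DESeq2 called 1 lower, KDR (17.9 to 31.5 CPM pre-molt and 5.26 to 13.3 CPM post-molt, adjusted p = 0.00360). In this list 3 log2 fold changes were positive and 5 negative. Of the 4 adipocyte markers tested DESeq2 called 1 lower, CIDEC (11.6 to 39.7 CPM and 3.36 to 9.78 CPM, adjusted p = 1.64e-04). The share called lower over all genes was 3.13%. The groups did not overlap in KDR, CIDEC and the fibroblast markers COL1A1 and LUM, as in 5.11% of all genes with post-molt lower. In the macrophage marker CD68 post-molt was higher without overlap (0 to 1.689 CPM and 1.691 to 6.17 CPM), as in 4.04% of all genes. Adipocyte markers (5 of 5 present, LEP at or under 0.0555 CPM), led by FABP4 and CIDEC, summed to 54.2 to 189 CPM and 28.6 to 94.2 CPM, and macrophage markers (5 of 7 present), led by C1QB and CSF1R, to 16.0 to 64.4 CPM and 19.8 to 38.0 CPM. The part of other cell types in the ATP2A2 difference was not tested. The library with the least NEB (pre-molt 5572) had the lowest ATP2A2 value and that with the most NEB (post-molt 9678) the highest. Between these extremes the orders of NEB and ATP2A2 differed. Post-molt 4448 held 955 CPM of NEB and 6961 CPM of ATP2A2, and pre-molt C497 held 5780 and 3247 CPM. These examples were picked after the values were seen. With log2 CPM of NEB as a covariate, a fit added after seeing the data, the log2 fold change of ATP2A2 was 1.12 (edgeR adjusted p = 0.0453). NEB itself had a log2 fold change of -0.46 ± 0.65 (edgeR adjusted p = 0.878). The part of RNA quality in the ATP2A2 difference was not tested.

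The 5 genes whose centred log2 CPM followed ATP2A2 most closely over the 8 libraries were LAP3, a leucine aminopeptidase, PLIN3, a lipid droplet coat protein, DNAJB6, a heat shock co-chaperone, GGA2, a trafficking adaptor of the Golgi, and ADPRHL1, a member of the ADP-ribosylhydrolase family. Their root mean square distances to ATP2A2 were 0.17 to 0.21 on the log2 scale, out of 6939 genes compared. DNAJB6 was at 101 ± 19.7 and 223 ± 43.2 CPM (SD, n = 4 each, log2 fold change 1.15 ± 0.21, edgeR adjusted p = 0.0422), and ADPRHL1 was at 380 ± 66.3 and 773 ± 77.4 CPM (1.03 ± 0.20, adjusted p = 0.0524). LAP3, PLIN3 and GGA2 had adjusted p of 0.0629 to 0.07999. These genes were chosen for their likeness to ATP2A2, so their differences are a description. Of the other members PLN was the nearest, at a distance of 0.43 and place 537, and ATP2A1 was the farthest, at 2.97 and place 6934.

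The fast-fiber pump gene ATP2A1 varied widely inside both groups and did not pass the test between them. Pre-molt libraries held 3.21 CPM (seal 5572), 602 CPM (5842), 3.92 CPM (6762) and 405 CPM (C497). Post-molt libraries held 45.2 CPM (4448), 134 CPM (5572), 201 CPM (9678) and 2.99 CPM (X410). Pre-molt 5842 and C497 lay above all post-molt libraries, pre-molt 5572 and 6762 lay below all of them but X410, and the highest library exceeded the lowest 201-fold. Inside the groups the SD was 3.49 on the log2 scale, and 99.9% of genes with a mean of at least 10 CPM had a smaller one. The log2 fold change was -1.41 ± 1.35 (edgeR adjusted p = 0.795), and its 95% interval of -4.33 to 1.51 leaves room for a large difference in either direction. Its sign was not stable, with 0.00045 by limma-voom and 0.98 with log2 CPM of NEB as a covariate. In seal 5572, which had the lowest value of the pre-molt group, ATP2A1 was 41.8-fold higher post-molt, against the direction of the group means of 254 ± 300 and 95.8 ± 88.8 CPM (SD, n = 4 each).

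The 2 libraries highest in ATP2A1 were the 2 highest in 5 of the 8 fast-fiber sarcomere genes in the table, and not in the other 3. TNNI2, the fast troponin I, was at 2471 CPM in pre-molt 5842 and 1345 CPM in pre-molt C497, at 6.28 and 5.61 CPM in pre-molt 5572 and 6762, and at 28.9 CPM in post-molt X410. The 5 were TNNI2, TNNT3, MYL1, TNNC2 and MYLPF, the fast regulatory light chain, and in TNNI2 and MYLPF the 3 lowest libraries were also those of ATP2A1. ACTN3, MYBPC2 and MYOZ1 were ordered otherwise, with pre-molt C497 the lowest of its group in each. ACTN3, the alpha-actinin of fast fibers, was at 7642 CPM in pre-molt 5572 and 3654 CPM in pre-molt C497, MYBPC2 at 1410 and 564 CPM, and MYOZ1 at 1822 and 847 CPM. From the highest to the lowest library TNNI2 differed 440.1-fold, MYLPF 232-fold and TNNT3, the fast troponin T, 102-fold. Of 11 fast-fiber sarcomere genes, 8 were in the table (MYH1, MYH2 and MYH4 were not matched), with a median log2 fold change of -2.30, 0 called by edgeR and 5 with an unadjusted p under 0.05, all lower, where 6.22% of all genes were. DESeq2 called 1 of the 8, MYBPC2, lower, against 3.13% of all genes. The list summed to 9612 to 26736 CPM pre-molt and 5671 to 8084 CPM post-molt, with ACTN3 (6137 ± 1752 and 3845 ± 433 CPM) and TNNC2 (2307 ± 2462 and 566 ± 255 CPM) the highest members. Of 9 slow-fiber genes, 8 were tested (MYH7 was not matched), with a median of -0.12 and 0 past even an unadjusted p of 0.05. The highest of them were MYL2 (15864 ± 4562 and 14357 ± 3642 CPM) and TNNI1 (8549 to 13415 and 9237 to 13532 CPM). The paper, citing earlier work, describes fast fibers as essentially absent in adult NES. In whole biopsies fewer fibers of a type and less RNA per fiber cannot be told apart, and the part of fiber makeup in the ATP2A1 values was not tested.

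**Figure D3:**
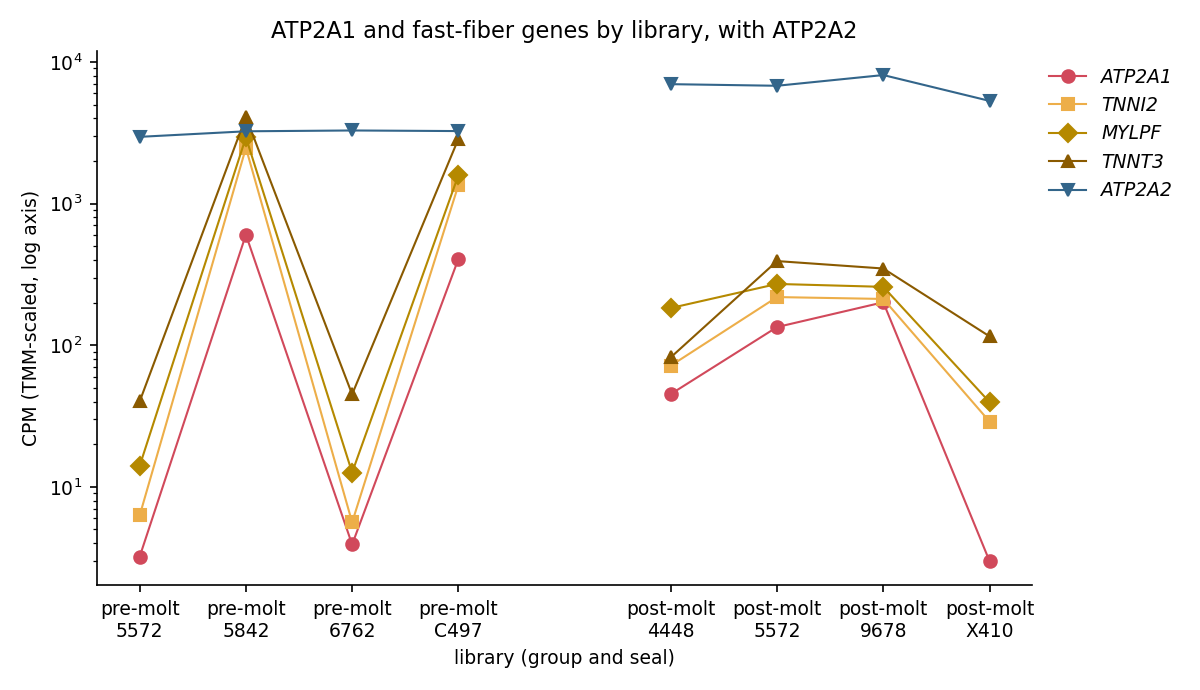
TMM-scaled CPM (log axis) of ATP2A1, of the fast-fiber genes TNNI2, MYLPF and TNNT3, and of ATP2A2 in each library, with lines joining the libraries of a group for reading only. ATP2A1 and these 3 fast-fiber genes, picked from 8 after their values were seen, are high in pre-molt 5842 and C497 and low in pre-molt 5572 and 6762, while ATP2A2 stays between 2956 and 3279 CPM across the same 4 libraries.

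Of the inhibitors of the pumps, PLN had a higher mean post-molt and SLN nearly the same mean at both times, and neither passed under edgeR. PLN, the inhibitor found with SERCA2 in slow fibers and heart, was at 475 CPM (5572), 357 CPM (5842), 468 CPM (6762) and 602 CPM (C497) pre-molt, and at 572 CPM (4448), 723 CPM (5572), 720 CPM (9678) and 968 CPM (X410) post-molt. Only pre-molt C497 and post-molt 4448 overlapped. The log2 fold change was 0.65 ± 0.23 (95% interval 0.16 to 1.14, edgeR adjusted p = 0.2498), which did not pass, while DESeq2 gave 0.66 with an adjusted p = 0.0388. In seal 5572 PLN was 1.52-fold higher post-molt. SLN, the inhibitor best known from skeletal muscle and atrium, was at 303 CPM (5572), 423 CPM (5842), 118 CPM (6762) and 382 CPM (C497) pre-molt and at 161 CPM (4448), 324 CPM (5572), 283 CPM (9678) and 387 CPM (X410) post-molt. Its groups covered nearly the same range, with a log2 fold change of -0.09 ± 0.36 (edgeR adjusted p = 0.965) and an interval of -0.87 to 0.69. The sign turned without pre-molt 5842 (0.13), pre-molt C497 (0.04) or post-molt 4448 (0.12).

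Ratios of reads of 2 genes inside a library, which do not depend on library scaling, were compared for 4 pairs by exact two-sided permutation over the 70 divisions into 4 and 4 libraries (smallest possible p = 0.029), with adjustment over the 4 pairs. Their size depends on transcript length, so it does not give the relative number of molecules, and the part of length-dependent coverage in their differences between libraries was not tested. ATP2A2 had 5.37 to 921 reads per read of ATP2A1 pre-molt and 40.2 to 1773 post-molt (difference of mean log2 ratios 1.02, exact permutation p = 0.657, adjusted 0.876). The ratio was lowest in pre-molt 5842 (5.37) and C497 (8.01) and highest in post-molt X410 (1773), pre-molt 5572 (921) and pre-molt 6762 (837), with the groups interleaved. PLN to ATP2A2 was 0.110 to 0.185 pre-molt and 0.0822 to 0.182 post-molt (difference -0.43, exact permutation p = 0.2, adjusted 0.4). The ratio was below every pre-molt value in 3 post-molt libraries, and post-molt X410, with the most PLN and the least ATP2A2 of its group, was at 0.182. CASQ2 to CASQ1 was 0.267, 0.272 and 0.296 in pre-molt 5572, 5842 and 6762 and 0.613 in pre-molt C497, against 0.397 to 0.670 post-molt (difference 0.63, exact permutation p = 0.114, adjusted 0.4). SLN to ATP2A1 ranged from 0.703 to 94.3 pre-molt and from 1.41 to 129 post-molt (difference -0.07, exact permutation p = 1).

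**Figure D4:**
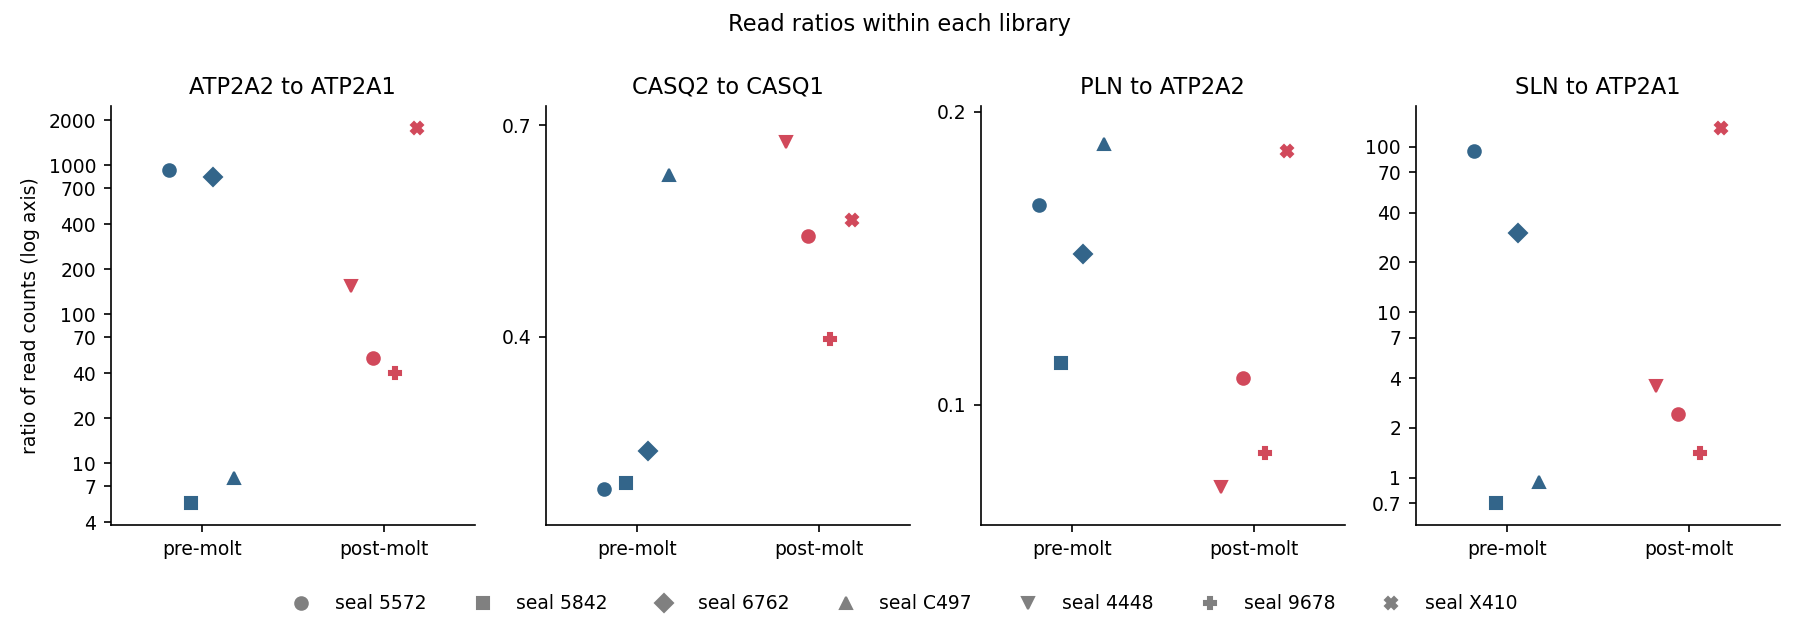
Ratio of read counts of 2 genes in each library (log axes, not corrected for transcript length), with pre-molt in blue and post-molt in red and 1 marker shape per seal. The ATP2A2 to ATP2A1 ratio runs from 5.37 to 1773 with the groups interleaved, and pre-molt C497 is the single pre-molt library with a CASQ2 to CASQ1 ratio (0.613) inside the post-molt range.

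For the release channel and its voltage sensor, no difference between the times beyond the spread between libraries was found. RYR1 was at 1876 CPM (5572), 3160 CPM (5842), 3858 CPM (6762) and 3884 CPM (C497) pre-molt and at 3124 CPM (4448), 2625 CPM (5572), 5495 CPM (9678) and 2832 CPM (X410) post-molt. The highest and the lowest value fell in different groups, with most libraries in a common middle range, and the log2 fold change was 0.14 ± 0.30 (edgeR adjusted p = 0.926, 95% interval -0.50 to 0.78). CACNA1S was at 767 CPM (5572), 816 CPM (5842), 807 CPM (6762) and 1220 CPM (C497) pre-molt and at 904 CPM (4448), 779 CPM (5572), 987 CPM (9678) and 631 CPM (X410) post-molt. Apart from pre-molt C497 the values kept within 631 to 987 CPM, and the log2 fold change was -0.13 ± 0.22 (edgeR adjusted p = 0.906, interval -0.61 to 0.36). The sign of both fold changes depended on single libraries: RYR1 turned to -0.05 without pre-molt 5572 and to -0.15 without post-molt 9678, and CACNA1S to 0.05 without pre-molt C497.

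RYR1, itself a gene with a very long transcript, was low in the same libraries as NEB and TTN. The 4 libraries lowest in RYR1, pre-molt 5572 and post-molt 4448, 5572 and X410, were the 4 lowest in NEB (645 to 2254 CPM, against 3279 to 6488 CPM in the other 4) and in TTN (1152 to 4193 CPM, against 16474 to 28797 CPM). Post-molt 9678 was the highest of the 8 in both RYR1 and NEB. Of those 4 libraries 3 were post-molt, and the fourth lowest RYR1 value (3124 CPM) was close to the next (3160 CPM). With log2 CPM of NEB as a covariate the log2 fold change of RYR1 was 0.30 (edgeR adjusted p = 0.684). The 3 lowest values of CACNA1S (631 to 779 CPM) also fell in libraries of this set, post-molt X410, pre-molt 5572 and post-molt 5572. The remaining library of the set, post-molt 4448, held more CACNA1S (904 CPM) than pre-molt 5842 (816 CPM) and 6762 (807 CPM) outside it. RNA integrity values were not used here, and the part of RNA quality in the RYR1 and CACNA1S values was not tested.

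**Figure D5:**
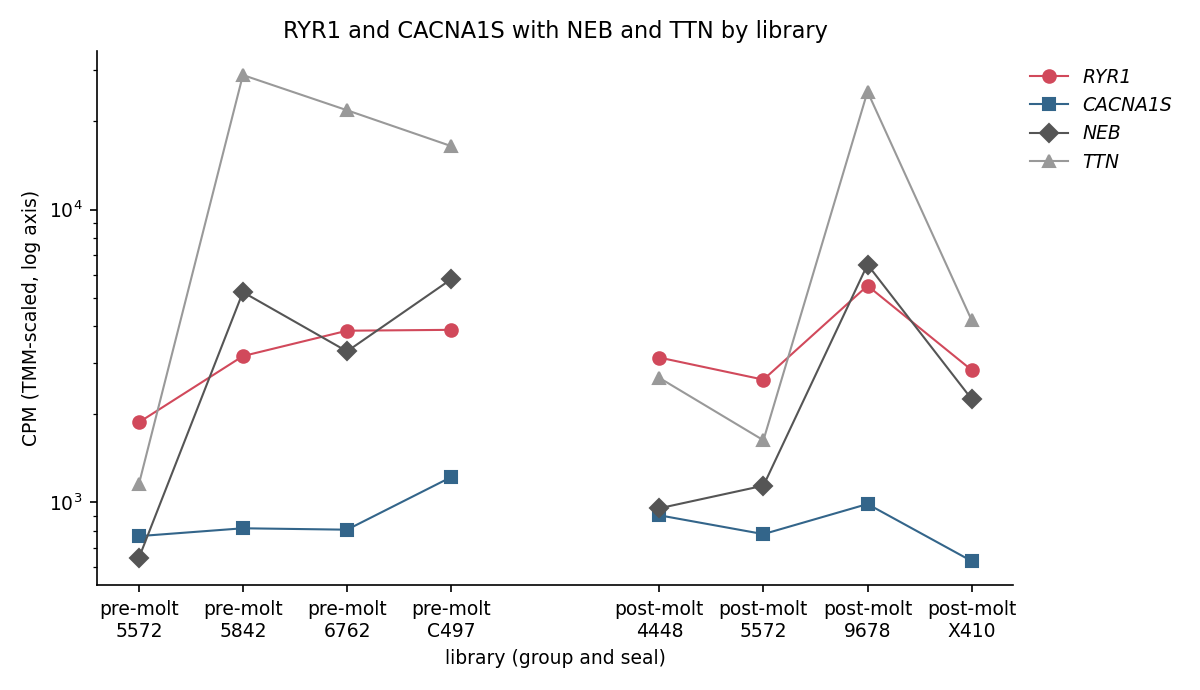
TMM-scaled CPM (log axis) of RYR1, CACNA1S, NEB and TTN in each library, with lines joining the libraries of a group for reading only. RYR1, NEB and TTN are all lowest in pre-molt 5572 and are lower in post-molt 4448, 5572 and X410 than in post-molt 9678. CACNA1S runs from 631 to 1220 CPM with its 3 lowest values in pre-molt 5572 and post-molt 5572 and X410, and is at 904 CPM in post-molt 4448.

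Of the proteins inside and around the store, CASQ1 and JPH1 had lower means post-molt. CASQ1 was at 1376 CPM (5572), 1884 CPM (5842), 902 CPM (6762) and 1102 CPM (C497) pre-molt and at 506 CPM (4448), 946 CPM (5572), 863 CPM (9678) and 1033 CPM (X410) post-molt. Pre-molt 6762 overlapped the post-molt range. The log2 fold change was -0.65 ± 0.28 (edgeR adjusted p = 0.379, DESeq2 adjusted p = 0.168), -0.41 without pre-molt 5842 and -0.47 without post-molt 4448. JPH1 was at 84.7 CPM (5572), 132 CPM (5842), 167 CPM (6762) and 154 CPM (C497) pre-molt and within a narrow range post-molt, at 79.5 CPM (4448), 91.3 CPM (5572), 84.3 CPM (9678) and 97.0 CPM (X410). Pre-molt 5572 alone reached into the post-molt range, and the log2 fold change was -0.61 ± 0.22 (edgeR adjusted p = 0.264, DESeq2 adjusted p = 0.0917). In seal 5572 CASQ1 was lower post-molt (0.687 of the pre-molt value) and JPH1 was at 1.08 times the pre-molt value. Neither gene passed under edgeR or DESeq2.

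CASQ2 and TRDN did not differ by more than the spread between libraries. CASQ2 was at 368 CPM (5572), 512 CPM (5842), 267 CPM (6762) and 676 CPM (C497) pre-molt and at 339 CPM (4448), 495 CPM (5572), 343 CPM (9678) and 563 CPM (X410) post-molt, with all post-molt values inside the pre-molt range (log2 fold change -0.07 ± 0.29, edgeR adjusted p = 0.966, interval -0.69 to 0.56). The sign of CASQ2 turned on leaving out single libraries, up to 0.19 without pre-molt C497. TRDN was at 848 CPM (5572), 1648 CPM (5842), 746 CPM (6762) and 810 CPM (C497) pre-molt and at 1095 CPM (4448), 1160 CPM (5572), 1176 CPM (9678) and 921 CPM (X410) post-molt. All 4 post-molt values lay above 3 of the pre-molt ones and below that of pre-molt 5842. The log2 fold change was 0.10 ± 0.26 (edgeR adjusted p = 0.943, interval -0.46 to 0.67), and it was 0.46 without pre-molt 5842 (adjusted p = 0.400).

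The seal sampled at both times, 5572, had higher values post-molt in 9 of the 10 genes, CASQ1 being the exception, and the sign matched that of the group log2 fold change in 5 of the 10. Besides ATP2A1, ATP2A2 and PLN, the largest of these ratios were 1.40 for RYR1, 1.37 for TRDN and 1.35 for CASQ2. They rest on 1 animal and were not tested.

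Around these 10 genes, 50 others of calcium handling were listed in 4 groups, 48 of which were in the table and 47 tested. The edgeR test called 0 of the 47. By unadjusted p alone, 5 higher and 4 lower genes were under 0.05, against 5.2% and 6.22% of all genes. DESeq2, which gave some of the 47 genes no adjusted p, called HRC and CACNA2D1 higher and FKBP1A lower. These were 3 of 47, against 6.44% of all genes to which DESeq2 gave an adjusted p, so that the count is close to the share over all genes. The groups did not overlap in 3 of the 47 (HRC, FKBP1A and CAMK2B), against 9.15% of all genes tested. The median log2 fold change was 0.09. Among uptake partners and calcium buffers (9 tested of 11, STRIT1 and ANK1 not matched), HRC, a calcium-binding protein of the store lumen, came nearest to the threshold. It was at 447 CPM (5572), 359 CPM (5842), 350 CPM (6762) and 383 CPM (C497) pre-molt and at 655 CPM (4448), 668 CPM (5572), 758 CPM (9678) and 680 CPM (X410) post-molt. The groups did not overlap, and the log2 fold change was 0.84 ± 0.18 (edgeR adjusted p = 0.0629, DESeq2 adjusted p = 3.58e-07, limma-voom adjusted p = 0.0335). S100A1, a calcium sensor that binds SERCA and the ryanodine receptor, was at 305 ± 171 and 167 ± 56.8 CPM (-0.87 ± 0.36, edgeR adjusted p = 0.364), and SRI, the sorcin gene, at 21.5 ± 3.24 and 13.3 ± 6.30 CPM (-0.70 ± 0.34, adjusted p = 0.468). The median of these 9 genes was -0.33.

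Among release channel and triad partners (17 tested of 18), FKBP1A, the immunophilin that steadies the closed ryanodine receptor, was at 334 to 611 CPM pre-molt and 231 to 302 CPM post-molt without overlap (log2 fold change -0.81 ± 0.23, edgeR adjusted p = 0.152, DESeq2 adjusted p = 0.0151). CACNA2D1, an auxiliary subunit of the voltage-gated calcium channel, was at 34.6 to 101 CPM and 90.0 to 158 CPM (1.11 ± 0.33, edgeR adjusted p = 0.171, DESeq2 adjusted p = 0.0253). SYPL2, the mitsugumin 29 gene of the triad, was at 49.7 to 86.1 CPM and 73.2 to 107 CPM (0.57 ± 0.22, edgeR adjusted p = 0.304). The median of this group was 0.18.

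Among the 10 genes of calcium entry and extrusion, SLC8A3, a sodium-calcium exchanger, was at 44.4 ± 14.7 and 26.4 ± 2.57 CPM, with a log2 fold change of -0.75 ± 0.25 (edgeR adjusted p = 0.2203). The store-operated channel gene ORAI1 was at 29.4 ± 5.82 and 41.1 ± 7.48 CPM (0.48 ± 0.21, adjusted p = 0.401) and SARAF, a brake on store-operated entry, at 39.3 ± 4.18 and 45.3 ± 7.63 CPM (0.21 ± 0.19, adjusted p = 0.788). The median of the 10 was 0.15. Of 11 genes for calmodulin, CaMKII and calcineurin, the 3 with the smallest p were CaMKII subunits that differed in sign. CAMK2B was at 30.0 to 54.4 CPM and 57.4 to 77.6 CPM without overlap (0.62 ± 0.22, edgeR adjusted p = 0.2498), CAMK2A at 59.4 to 145 CPM and 125 to 180 CPM (0.53 ± 0.25, adjusted p = 0.461) and CAMK2G at 290.5 to 352 CPM and 205 to 303 CPM (-0.49 ± 0.19, adjusted p = 0.324). The median of the 11 was 0.05.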

How the data were processed

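RNA of 8 muscle biopsies was sequenced by the authors, who converted base calls with bcl2fastq 2.20, mapped reads by STAR onto the genome of the Hawaiian monk seal, and deposited whole-number read counts per gene, with R 3.4.3 and DESeq2 1.18.1 named for their own test. Reads of 1 seal species were thus counted on the genes of another, multiply mapped reads do not enter such counts, and the strand setting is not given in the sources used here. Of 24349 entries, 8 carried no gene name (0.0145 to 0.0187% of counts) and were left out.

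Genes were kept with filterByExpr (minimum count 10, minimum total 15) and fitted in edgeR 4.0.16 (R 4.3.3, quasi-likelihood, TMM factors), post-molt over pre-molt, at an adjusted p of 0.05, with no seal term because 1 seal alone was in both groups of the libraries kept. The SE was derived from the test statistic. Log2 CPM used a prior count of 2. Ratios were tested by exact permutation in SciPy 1.17.1. Alternatives used DESeq2 1.42.0 and limma 3.58.1. The scripts were tested on simulated data. Over 28 pairs of libraries chi-square divided by its degrees of freedom was at least 99, so none was a copy of another.

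The 10 members and all lists were chosen with earlier results of these data known. Of the 4 calcium lists, called genes and the 3 with the smallest p were named, of the marker lists the 2 highest, and the 5 genes nearest to ATP2A2. Genes outside this rule (TNNI2, MYLPF, TNNT3, MYL1, MYBPC2, MYOZ1, KDR, LUM, COL1A1, CD68, TTN, NEB) were named after their values were seen. Each library is 1 biopsy of 1 seal, so p-values reflect the spread between seals and between libraries together. All 10 symbols occur in the RefSeq gene table of the elephant seal assembly mMirAng1.0, and no sequences were used.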

Additional observations from a re-analysis of the deposited data

Results flagged for a closer look

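In 28 groups of 4 values (the CPM of each of the 10 genes and the 4 log2 read ratios, pre-molt and post-molt), 4 had a library that stood apart by Dixon's test at its 95% critical value, where chance gives about 1 in 20. Pre-molt 5572 was low in ATP2A2 (2956 CPM, against 3235 to 3279 CPM in the other 3), a small gap in a tight group. Pre-molt C497 was high in CACNA1S (1220 CPM) and in its log2 ratio of CASQ2 to CASQ1 reads (-0.71). Pre-molt 5842 was high in TRDN (1648 CPM). All 4 were pre-molt libraries, and no post-molt group was flagged.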

How the results depend on the processing

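No paired analysis was possible because 1 seal alone (5572) has both times among the libraries kept. Of 19 alternatives, the log2 fold change of ATP2A2 kept its sign in all (1.002 to 1.20) and its call in 8, and 0 of the 10 genes were called lower in any. In the paper, pre-molt 5842 and post-molt 9678 have the lowest shares of uniquely mapped reads of the 8 libraries. With upper-quartile factors ATP2A2 was at 1.08 (edgeR adjusted p = 0.0507) and with no filter at 1.11 (edgeR adjusted p = 0.0555). Without both libraries of seal 5572 ATP2A2 was at 1.06 (edgeR adjusted p = 0.244), and without pre-molt 5842 and post-molt 9678 at 1.03 (edgeR adjusted p = 0.115). The number of genes called higher was 0 in these 4 settings, 2 with DESeq2 (ATP2A2 and PLN) and 0 to 1 with 1 library left out. PLN passed with DESeq2 (0.66, adjusted p = 0.0388) and in no other setting.

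Signs turned in genes that were not called. ATP2A1 was at 0.00045 with limma-voom and at 0.98 with log2 CPM of NEB as a covariate, an alternative added after seeing the data, under which CASQ2 was at 0.014. With 1 library left out, the ranges were -2.05 to -0.53 for ATP2A1, -0.15 to 0.26 for RYR1, -0.22 to 0.053 for CACNA1S, -0.35 to 0.13 for SLN, -0.25 to 0.19 for CASQ2 and -0.014 to 0.46 for TRDN. Without seal 5572 TRDN was at -0.0098, and without pre-molt 5842 and post-molt 9678 SLN was at 0.14, RYR1 at -0.14 and CASQ2 at 0.12. The log2 ratio of ATP2A2 to ATP2A1 differed by -0.26 to 2.22 with 1 library left out, and that of SLN to ATP2A1 by -1.52 to 1.21, and by 1.67 without seal 5572. The cause was not tested. The ratios of CASQ2 to CASQ1 and of PLN to ATP2A2 kept their signs in all 11 alternatives, at adjusted p from 0.229 to 0.8. With 4 libraries per group differences may be missed, including some above 1 log2 unit. By edgeR, CACNA2D1 (log2 fold change 1.11, edgeR adjusted p = 0.171), TNNI3 (1.40, edgeR adjusted p = 0.0844) and CIDEC (-2.29, edgeR adjusted p = 0.0542) were not called.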
